A study of Mus musculus with 2 samples.

Results

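The Tafa genes, once named Fam19a, are a family of 5 genes, Tafa1 to Tafa5, and all 5 were found by symbol among the 55416 features of a single-nucleus RNA-seq study of whole fetal mouse brain. The study compared a wildtype sample with a Cav1 knockout (KO) sample, Cav1 being the gene for caveolin 1, a membrane coat protein, and each genotype had 1 library. The labels give the age of both samples as fetal and the tissue as whole brain. The fetal day, the number of fetuses behind each library and the knockout allele are not given in the sources used here. Nuclei were isolated from frozen brain, and RNA was counted as unique molecular identifiers (UMIs), each standing for 1 captured RNA molecule. Nuclei entered the sums if 500 or more genes were detected in them and mitochondrial transcripts made up no more than 5% of their UMIs. The genes were chosen by symbol, but the family was proposed with the UMI sums of these libraries by neuron type in view, above all the Tafa1 sum of forebrain inhibitory neurons.

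Tafa proteins are small secreted proteins rich in cysteine, made mainly in the nervous system. Tafa1 to Tafa4 are reported to bind neurexins, presynaptic adhesion proteins, while these are still inside the cell that makes them, and several members are also reported as ligands of cell surface receptors. Tafa1, Tafa2, Tafa4 and Tafa5 span long genes with large introns, and RNA of nuclei is rich in unspliced transcripts.

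All 5 genes have 4 coding exons in the GRCm39 annotation, and the second of these is shown for 4 members because its cysteine codons, the family's hallmark, set Tafa5 apart from Tafa1, Tafa2 and Tafa3. Each is given 5′ to 3′ on the coding strand, with in-frame cysteine codons in capitals. The exons lie at chr6:96500296-96500436 (plus strand) for Tafa1, chr10:123540264-123540416 (plus) for Tafa2, chr3:104680356-104680505 (minus) for Tafa3 and chr15:87565681-87565830 (plus) for Tafa5.
Tafa1: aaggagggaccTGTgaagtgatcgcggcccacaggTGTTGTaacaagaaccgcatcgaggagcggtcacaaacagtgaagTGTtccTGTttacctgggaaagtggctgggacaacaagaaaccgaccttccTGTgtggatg
Tafa2: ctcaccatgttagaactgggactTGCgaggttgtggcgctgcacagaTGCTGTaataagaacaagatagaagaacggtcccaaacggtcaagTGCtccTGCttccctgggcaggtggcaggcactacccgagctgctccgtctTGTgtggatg
Tafa3: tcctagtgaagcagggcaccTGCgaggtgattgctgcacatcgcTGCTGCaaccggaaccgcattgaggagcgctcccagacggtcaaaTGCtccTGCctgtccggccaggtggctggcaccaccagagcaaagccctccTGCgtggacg
Tafa5: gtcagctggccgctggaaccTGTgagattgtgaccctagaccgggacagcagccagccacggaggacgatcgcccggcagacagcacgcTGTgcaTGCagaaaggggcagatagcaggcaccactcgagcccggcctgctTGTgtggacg
In this exon Tafa1, Tafa2 and Tafa3 each have 6 cysteine codons, with an adjacent pair among them, whereas Tafa5 has 4 and no adjacent pair. Aligned base by base, the exon was 67.5% identical between Tafa1 and Tafa2 and 69.9% identical between Tafa2 and Tafa3, the closest pair of the 4. Identity to Tafa5 was lower, 55.6% for Tafa1 and 57.8% for Tafa3. The coding regions of these 4 are of similar length, from 393 bases in Tafa2 to 399 in Tafa1.

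The wildtype-labelled library had 6686 kept nuclei with 17205381 UMIs and a median of 2133.5 UMIs, and the knockout-labelled library had 6680 nuclei with 19878903 UMIs and a median of 2366.0. The libraries shared 43 barcodes, of which 10 were kept in both. The targeted gene gave 71 and 80 Cav1 UMIs over all nuclei, a log2 ratio of -0.04 (95% interval -0.52 to 0.45), so its total did not separate the labels. In nuclei named endothelial cell-like, where Cav1 is normally high, it gave 17 and 1 UMIs. Clustering without the Tafa genes gave 23 clusters, 21 of which carried enough markers to be named in 14 classes, and markers of neurons, radial glia and dividing cells were present as the tissue label implies. With 1 library per genotype no test of genotype was possible. Every interval below covers counting error only, not the spread between animals or between nuclei.

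Tafa1, Tafa2 and Tafa5 accounted for nearly all of the family's RNA, and in each pair of values below the wildtype-labelled library comes before the knockout-labelled one. Tafa1 (ENSMUSG00000059187, chr6:96090088-96635542) gave 5028 and 5905 UMIs, or 292 and 297 CPM, the UMIs of a gene scaled to a common library total. Tafa2 (ENSMUSG00000044071, chr10:123099901-123577979) gave 5652 and 7019 UMIs, or 329 and 353 CPM. Tafa5 (ENSMUSG00000054863, chr15:87428390-87643565) gave 2567 and 3015 UMIs, or 149 and 152 CPM. Per kilobase of gene span these levels lay close together in the wildtype-labelled library, at 0.536 CPM for Tafa1, 0.687 for Tafa2 and 0.693 for Tafa5. Per kilobase of annotated exon the order turned round, at 51.8, 44.6 and 33.4 CPM, so no order among these 3 genes is given.

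The remaining pair was rare. Tafa4 (ENSMUSG00000046500, chr6:96808164-97057174) gave 72 and 111 UMIs, or 4.18 and 5.58 CPM. Per kilobase of gene span it stood at 0.0168 and 0.0224 CPM, far under the 3 abundant members. Tafa3 (ENSMUSG00000055865, chr3:104674711-104689156) gave 1 and 0 UMIs, and a count of 0 in the knockout-labelled library allows up to 0.151 CPM. Tafa3 was thus not detectable at this depth, and no comparison of it was made.

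Over all nuclei no member differed by 2-fold between the libraries. The log2 ratio, knockout-labelled over wildtype-labelled, was 0.02 for Tafa1 (-0.03 to 0.08), 0.10 for Tafa2 (0.05 to 0.15), 0.42 for Tafa4 (-0.02 to 0.86) and 0.02 for Tafa5 (-0.05 to 0.10). None of the 4 members with at least 100 UMIs in both libraries together passed 2-fold. Of all 15528 genes with that many UMIs, 0.367% were higher by 2-fold or more in the knockout-labelled library and 0.116% were lower by as much. The genes around Tafa1 and Tafa4, which lie 173 kb apart on chromosome 6, were also close to even. None of 17 other genes with at least 100 UMIs within 3 Mb of the pair passed 2-fold, and their log2 ratios ran from -0.34 to 0.34. Cav1 lies on the same chromosome, 78.7 Mb from Tafa1.

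Tafa1 RNA was concentrated in a small share of nuclei. Only 843 nuclei of the wildtype-labelled library (12.6%) and 994 of the knockout-labelled library (14.9%) had a Tafa1 UMI, with means of 5.96 and 5.94 UMIs in those nuclei. The 67 nuclei with the most Tafa1, 1% of each library, held 39.8% and 35.9% of all Tafa1 UMIs. Nuclei with at least 5 Tafa1 UMIs numbered 295 (4.41%) and 359 (5.37%), and they held 80.8% and 80.3% of the gene's UMIs. Both libraries thus show the same picture of a few nuclei with many transcripts. The highest nuclei had 83 and 106 Tafa1 UMIs.

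Tafa2 was less concentrated than Tafa1, and Tafa5 less than either. Tafa2 was seen in 1366 and 1554 nuclei, with means of 4.14 and 4.52 UMIs in them, and the highest nuclei had 40 and 70. With all UMIs counted, Tafa5 was seen in more nuclei than either, 1596 (23.9%) and 1727 (25.9%), but at means of 1.61 and 1.75 UMIs. Nuclei with at least 5 UMIs held 68.4% and 71.5% of Tafa2 UMIs and 12.9% and 16.5% of Tafa5 UMIs. The concentration of Tafa1 was also seen when each nucleus was thinned to 1000 UMIs. After thinning, a nucleus with any Tafa1 UMI had a mean of 2.70 and 2.34 of them. Only 2 of 1469 genes with a similar thinned total in the wildtype-labelled library, and 6 of 1491 in the knockout-labelled library, had a higher mean, and the median of those genes was 1.14 in each. The same mean was 1.98 and 1.94 for Tafa2, above 97.2% and 96.8% of genes with a similar total. For Tafa5 it was 1.22 and 1.19, still above most such genes, since 264 of 2570 and 310 of 2580 had a higher mean and their median was 1.09 in each library. Thinned, Tafa5 was seen in fewer nuclei than Tafa2, 696 (11.9%) and 674 (12.1%) against 809 (13.9%) and 832 (14.9%). The thinned values leave out 846 and 1111 shallower nuclei.

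**Figure D1:**
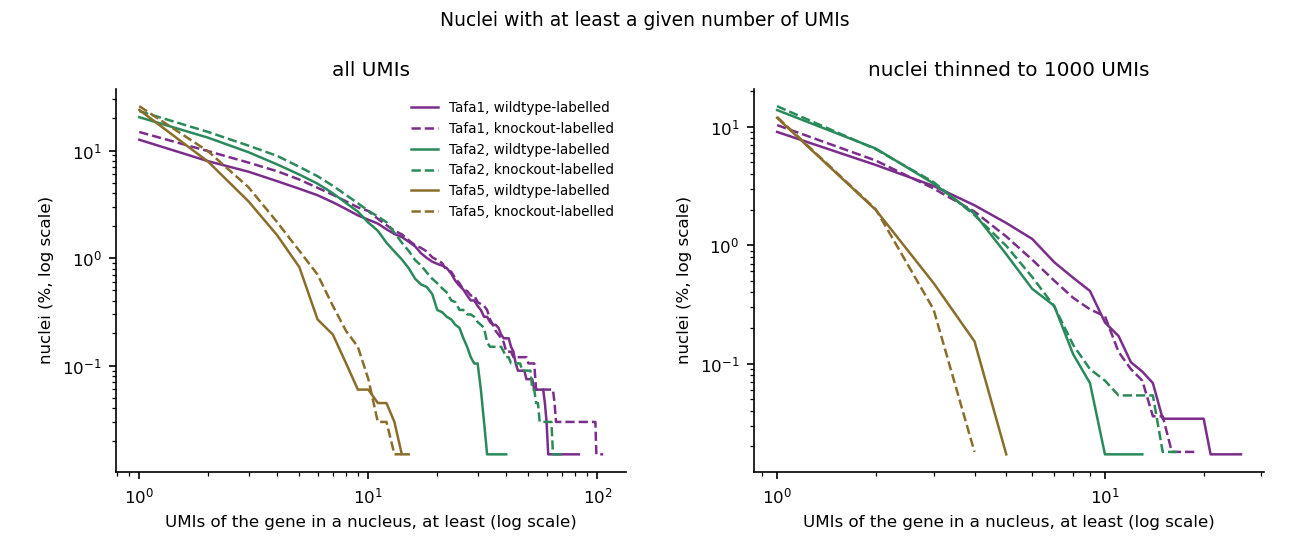
Share of kept nuclei (%, log scale) with at least a given number of UMIs of Tafa1, Tafa2 or Tafa5 (log scale), from all UMIs (left) and after thinning each nucleus to 1000 UMIs (right). Solid lines are the wildtype-labelled and dashed lines the knockout-labelled library. On the left the Tafa1 curves start lowest at 1 UMI and reach the highest counts, 83 and 106 UMIs in a nucleus. Tafa5 there starts at 23.9% and 25.9% of nuclei and ends at 15 and 14 UMIs. On the right Tafa5 starts at 11.9% and 12.1%, under Tafa2 at 13.9% and 14.9%.

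Among the named classes, the nuclei rich in Tafa1 sat mainly in excitatory neurons and in neurons of no named type. Of the nuclei with at least 5 Tafa1 UMIs, cortical excitatory neurons held 102 and 66, which were 6.12% and 5.53% of the class. Other excitatory neurons held 63 and 80 (10.2% and 11.2%), and the neuron-like class 82 and 142 (9.28% and 11.2%). Over all nuclei the share was 4.41% and 5.37%, so the knockout-labelled cortical excitatory class was close to it. Within that class cluster 10 held 90 and 58 of the 102 and 66. The unnamed cluster 15, of high depth and with 57.9% of its nuclei among the top doublet scores, held 22 and 41. These were 21.6% and 23.0% of its nuclei, and its Tafa1 level was 362 and 352 CPM. Cluster 10, a cortical excitatory neuron-like cluster led by Slit3 (an axon guidance ligand) and Sphkap (a kinase anchoring protein), had the highest level in both libraries, 1836 CPM (1731 UMIs) and 1343 CPM (1083 UMIs). It held 4.76% and 3.59% of the nuclei and 34.4% and 18.3% of all Tafa1 UMIs. Next in the wildtype-labelled library came cluster 5, an other excitatory neuron-like cluster led by Ebf2 and marked by the transcription factor Pou4f1, at 741 CPM, ahead of cluster 0 at 448. In the knockout-labelled library cluster 5 (458 CPM) and cluster 0 (472 CPM) did not differ beyond counting error. Cluster 0, of 723 and 1161 nuclei, was named from general neuron markers only, and its leading genes include the non-coding RNA Snhg11. Of its nuclei, 157 and 231 had a UMI of a glutamate transporter gene but of no inhibitory gene. In 342 and 553 nuclei, UMIs of a GABA or glycine gene came without such a transporter. Among the named neuron clusters, clusters 12 and 14 followed at 266 and 284 CPM in the wildtype-labelled library and at 386 and 227 CPM in the knockout-labelled library. Cluster 12 is excitatory and marked by Tcf7l2 and Ntng1, and cluster 14 is other inhibitory neuron-like and marked by Gata3 and Pax7.

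The other cortical excitatory clusters were low in Tafa1. Cluster 2, led by Unc5d, had 55.1 and 61.9 CPM, cluster 6 had 13.9 and 30.3, and cluster 9, led by Dync1i1, had 103 and 52.9. Forebrain inhibitory neurons were also low, at 16.7 and 84.6 CPM as a class. Intermediate progenitors, the dividing precursors of cortical excitatory neurons, had 7.92 and 28.1 CPM from 4 and 11 UMIs. Dividing cells had 35.0 and 39.6 CPM. The highest cluster exceeded the lowest 232-fold and 107-fold, folds that rest on few UMIs in the lowest cluster. With the wildtype label the lowest was that of the intermediate progenitors. With the knockout label it was radial glia cluster 4, at 12.6 CPM from 11 UMIs. For reference, barcodes left out for having under 500 genes gave 24.1 and 19.4 CPM of Tafa1, a level above that of the lowest clusters, and the part of free RNA in those clusters was not tested.

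Detection of Tafa1 in cluster 10 was frequent but far from complete. It was seen in 134 of 318 nuclei (42.1%, exact interval 36.6% to 47.8%) and in 86 of 240 (35.8%, 29.8% to 42.3%). Thinned to 1000 UMIs, the shares were 36.8% and 29.5%, with intervals of 31.4% to 42.4% and 23.8% to 35.8%. In intermediate progenitors the thinned shares were 1.31% and 1.23%. Median depths were 2672.0 and 2862.0 UMIs in cluster 10 and 1952.5 and 2056.5 in the progenitors. At least 5 Tafa1 UMIs were found in 28.3% and 24.2% of the nuclei of cluster 10. Most nuclei of this cluster nevertheless had no Tafa1 UMI.

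Cluster 10 was not uniform. At a Leiden resolution of 2 its nuclei went mainly to 3 finer clusters, called subclusters here. The one led by Sphkap, Unc13c and the nuclear receptor Nr4a2 had 2371 and 2039 CPM of Tafa1, with a UMI in 75 of 145 nuclei (51.7%) and in 44 of 89 (49.4%). The subcluster led by Tfap2d and Plxna4, which had 223 and 153 nuclei but took only 157 of them from cluster 10, had 1452 and 972 CPM. The subcluster led by Slit3 and Gm32647 had only 57.4 and 85.9 CPM, with a UMI in 5.69% and 6.73% of nuclei. Tafa2 followed the same division, at 1455 and 1201 CPM in the Sphkap-led, 988 and 1283 in the Tfap2d-led and 130.5 and 40.1 in the Slit3-led subcluster. In both libraries, then, 2 of the 3 subclusters carried the high levels of both genes. Tafa5 differed less, at 234 and 229.6, 378 and 355, and 136 and 126 CPM in the same order. By its markers only the Slit3-led subcluster kept the name cortical excitatory neuron-like, and the other 2 stayed unnamed.

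Tafa2 was high in the same excitatory clusters and present in more neuron classes. Clusters 5 and 10 led, at 1139 CPM each in the wildtype-labelled library and at 898 and 995 CPM in the knockout-labelled library, followed by cluster 0 at 574 and 519. As classes, other excitatory neurons had 704 and 643 CPM, neurons of no named type 539.6 and 495, and cortical excitatory neurons 373 and 341. Unlike Tafa1, it was clearly present in forebrain inhibitory neurons, at 185 and 199 CPM from 310 and 303 UMIs. Other inhibitory neurons had 210.2 and 285 CPM. Radial glia, the neural stem cells of the fetal brain, were low at 22.9 and 44.3 CPM, as were intermediate progenitors at 25.7 and 10.2. Neuron classes held 88.9% and 80.8% of Tafa2 UMIs and 87.1% and 80.1% of Tafa1 UMIs, against 67.2% and 65.2% of all UMIs.

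Tafa5 had a flat profile. Its highest cluster, again cluster 10 at 287 and 232 CPM, exceeded the lowest only 7.59-fold and 4.03-fold. Radial glia had 171 and 160.1 CPM, as much as other excitatory neurons at 165 and 162. Cortical excitatory neurons had 153 and 138 CPM and forebrain inhibitory neurons 127 and 115. Within the forebrain inhibitory class the Lhx6-led cluster 3, with markers of cortical interneurons, had 162 and 153 CPM. Cluster 7, with the striatal marker Drd2, had 67.1 and 57.6, a gap beyond counting error in both libraries. At the finer resolution cluster 3 split mainly into a subcluster with Nkx2-1 and an Nxph2-led one. The first had 54.4 and 79.3 CPM and the second 239 and 228, so the gap did not hold for all of cluster 3. Low levels were found in fibroblast-like nuclei, at 37.8 and 59.4 CPM. Neuron classes held 71.7% and 69.4% of Tafa5 UMIs, close to their share of all UMIs. Profiles over the 18 clusters with at least 50 nuclei in each library correlated between libraries with Pearson r of 0.87 for Tafa1, 0.96 for Tafa2 and 0.93 for Tafa5, as a description of clusters that share libraries and depth.

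**Figure D2:**
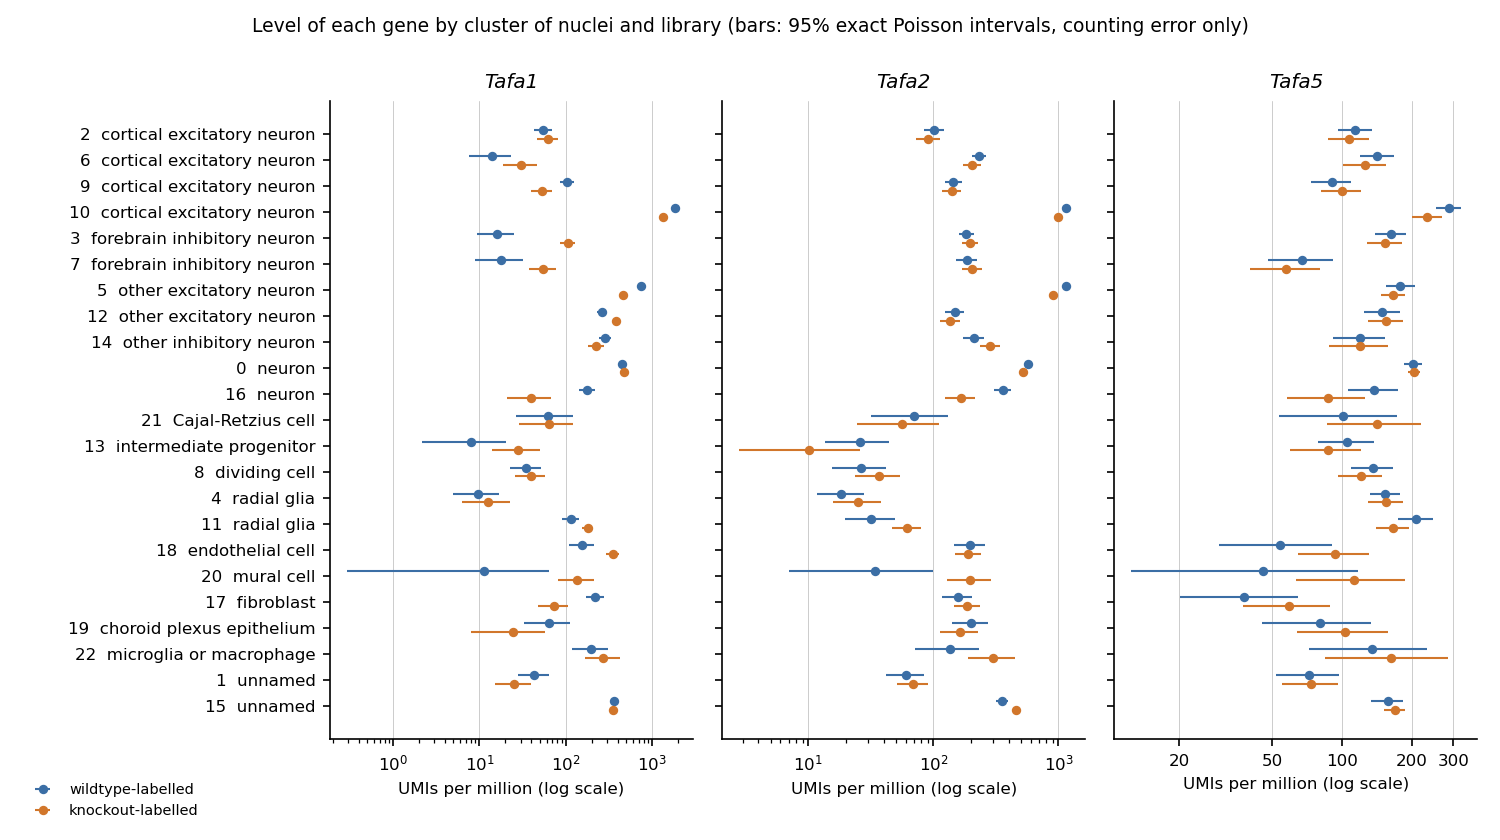
Level of Tafa1, Tafa2 and Tafa5 (CPM, log scale) in each cluster, with exact Poisson 95% intervals, blue for the wildtype-labelled and orange for the knockout-labelled library. Tafa1 reaches 1836 and 1343 in cluster 10 and stays under 110 in the other 3 cortical excitatory clusters, while Tafa5 stays between 37.8 and 287 in all clusters.

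Tafa4 was too rare to map firmly. Its 72 and 111 UMIs lay in 58 and 90 nuclei, with at most 4 in any nucleus. Neurons held 79.2% and 74.8% of them, against 67.2% and 65.2% of all UMIs. Cluster 0 had 26 and 32 UMIs, and cluster 5 had 6 and 29, or 5.46 and 16.9 CPM. Counts this small left a wide interval around the log2 ratio of the libraries in cluster 5, 1.63 (0.34 to 3.19).

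The nuclei of neuron classes were also split by transmitter genes instead of clusters, a division chosen after the levels had been seen. Nuclei with a UMI of a vesicular glutamate transporter gene (Slc17a6, Slc17a7 or Slc17a8) and of no inhibitory gene had 516 and 552 CPM of Tafa1. Nuclei with a UMI of a GABA or glycine gene (Gad1, Gad2, Slc32a1 or Slc6a5) and of no such transporter had 209 and 268 CPM. For Tafa2 the same values were 536 and 570.0 against 314 and 331 CPM. For Tafa5 they were 170.0 and 184 against 155 and 156. Over all neuron classes Tafa1 and Tafa2 were thus higher in the glutamatergic than in the inhibitory set in both libraries. Nuclei with neither kind of UMI, 1744 and 1472 of them, had 406 and 359 CPM of Tafa1, and the 177 and 250 with both had 609.8 and 273. In the set with both, 11 nuclei of cluster 10 in each library gave 211 of 428 and 17 of 386 Tafa1 UMIs. In cluster 0 alone, the inhibitory set had 388 and 397 CPM of Tafa1 and the glutamatergic set 578 and 722. In cluster 5 the inhibitory set, of 23 and 42 nuclei, had 843 and 307 CPM and the glutamatergic set 776 and 501, so there the wildtype-labelled inhibitory set was not lower.

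Tafa1 and Tafa2 were found in the same nuclei of cluster 10. After thinning to 1000 UMIs, 81 of 114 wildtype-labelled nuclei with Tafa1 also had Tafa2 (71.1%, 61.8% to 79.2%), against 41 of 196 without Tafa1 (20.9%, 15.4% to 27.3%). In the knockout-labelled library the shares were 62.9% (50.5% to 74.1%) and 22.2% (16.1% to 29.2%). The intervals did not overlap in either library, and the subclusters above differ in both genes together. In cluster 5 Tafa2 was common whether or not Tafa1 was seen, at 57.8% against 47.5% and at 44.1% against 35.4%. In cluster 0 the shares were 37.2% against 27.3% and 27.2% against 24.9%, with overlapping intervals. Tafa5 in cluster 10 was seen in 29.8% and 20.0% of nuclei with Tafa1 and in 21.9% and 15.6% of those without it.

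**Figure D3:**
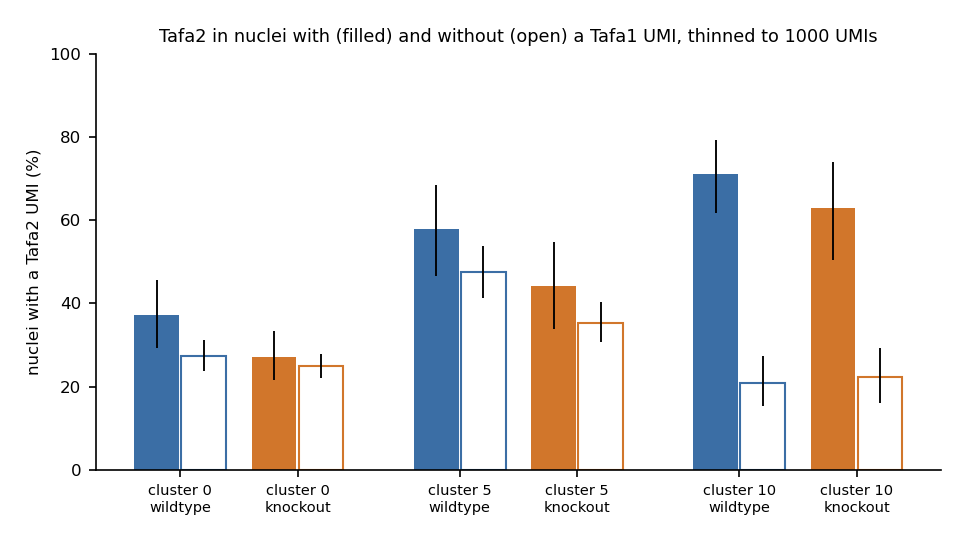
Share of nuclei with a Tafa2 UMI (%) among nuclei with (filled bars) and without (open bars) a Tafa1 UMI, after thinning to 1000 UMIs, in clusters 0, 5 and 10 of each library, blue for wildtype-labelled and orange for knockout-labelled. Lines are exact binomial 95% intervals. The bars part in cluster 10, at 71.1% against 20.9% and 62.9% against 22.2%.

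Differences between the libraries within classes were small for most members and classes. In cortical excitatory neurons Tafa1 was lower in the knockout-labelled library, 354 against 452 CPM, a log2 ratio of -0.35 (-0.46 to -0.25). Cluster 10 (-0.45, -0.56 to -0.34) had 1731 of the 1927 UMIs that the class gave with the wildtype label and 1083 of 1214 with the knockout label, in 318 and 240 nuclei. With finer clusters, where the Sphkap-led and Tfap2d-led nuclei leave the class, the class ratio turned to 0.69. Within the Sphkap-led subcluster the ratio was -0.22 (-0.35 to -0.08) and within the Tfap2d-led one -0.58 (-0.78 to -0.38). In other excitatory neurons Tafa1 stood at 434 against 532 CPM (-0.29, -0.42 to -0.17), and the 2 clusters of the class went opposite ways, -0.69 (-0.84 to -0.55) in cluster 5 and 0.54 (0.29 to 0.79) in cluster 12. At the finer resolution the subcluster with most of cluster 5, marked by Tfap2d and Pou4f1 and drawing also on cluster 0, was near even at -0.07 (-0.24 to 0.09). The Ebf2-led subcluster had a ratio of -1.07 from 299 against 337 UMIs, of which the top 5 nuclei held 135 and 110. The Robo3-led one had -1.98 from 74 against 49 UMIs, of which the top 5 nuclei held 56 and 27. The share of all genes past 2-fold was not counted in these subclusters. They had 108 against 244 and 53 against 127 nuclei, so the libraries differed in the makeup of these neurons as well.

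Tafa2 and Tafa5 had smaller ratios in the neuron classes. Tafa2 had log2 ratios of -0.13 in cortical excitatory, -0.13 in other excitatory and 0.11 in forebrain inhibitory neurons (-0.19 with coarser clusters). In other inhibitory neurons it was 0.44 (0.05 to 0.83). Tafa5 had ratios of -0.14, -0.03 and -0.15 in the first 3 classes and 0.00 in the last, where thinning to 1000 UMIs gave 0.86. Over the 22 clusters where Tafa5 had at least 20 UMIs, 11 log2 ratios were above 0, 10 below and 1 at 0, and they ran from -0.65 to 0.79. Tafa2 ratios ran from -1.11 to 2.52 over 21 clusters, 11 above 0 and 10 below, with the extremes in small clusters. Tafa1 ratios ran from -2.19 to 2.72 over 19 clusters, 11 above 0 and 8 below.

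The largest Tafa1 ratio among the neuron classes was in forebrain inhibitory neurons, the value that led to the choice of this family, so it is described and not tested. The class had 28 UMIs in 920 wildtype-labelled nuclei and 129 UMIs in 752 knockout-labelled nuclei, a log2 ratio of 2.34 (1.74 to 2.99). Of the 6079 genes with at least 100 UMIs in this class, 0.181% were 2-fold or more up in the knockout-labelled nuclei and 0.0823% were down by as much. Tafa1 was the only one of the 3 members with that many UMIs to pass 2-fold. The excess lay mostly in cluster 3, with 17 against 96 UMIs (2.72, 1.96 to 3.55), where 0.262% of 4192 genes were 2-fold or more up and 0.0716% down, and at the finer resolution in the subcluster with Nkx2-1 (13 against 89 UMIs). With coarser clusters the class ratio was 0.92, under 2-fold. Nkx2-1 is the transcription factor of the medial ganglionic eminence, the birthplace of many cortical interneurons. Cluster 7 had 11 against 33 UMIs (1.59, 0.57 to 2.73).

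Few nuclei made up this excess. In cluster 3 of the knockout-labelled library 3 nuclei held 38, 23 and 13 Tafa1 UMIs, 74 of the 96, whereas the highest wildtype-labelled nucleus had 7. The nucleus with 38 had 0 UMIs of the forebrain inhibitory markers and 3 of the cortical excitatory markers. The nucleus with 23 was among the highest doublet scores and had 12 UMIs of other excitatory markers beside 10 of forebrain inhibitory markers. The nucleus with 13 had 10 UMIs of forebrain inhibitory markers and no high doublet score. With the 3 highest nuclei of each library left out, an alternative added after seeing the data, cluster 3 had 8 against 22 UMIs (1.68, 0.46 to 3.06) and the class 18 against 55 (1.75, 0.96 to 2.61). Nuclei with at least 5 Tafa1 UMIs numbered 1 of 920 (0.109%, 0.00275% to 0.604%) and 5 of 752 (0.665%, 0.216% to 1.54%), intervals that overlap. The thinned share of nuclei with Tafa1 in cluster 3 was 0.977% (0.318% to 2.26%) and 2.72% (1.36% to 4.81%), also overlapping. As a sum, the knockout-labelled value was higher with and without these nuclei, at a level well below that of clusters 0, 5 and 10. Both sums come from the value that led to the choice of the family, so neither is separate support for a difference.

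Tafa1 was also past 2-fold in radial glia as a class. It gave 84 and 182 UMIs, 44.8 and 99.5 CPM (1.15, 0.77 to 1.54), while 0.366% of the 7385 genes with that many UMIs in the class were 2-fold or more up and 0.0406% down. Thinned, the ratio was 0.59, with both clusters of the class weighted equally 0.62, and without the 3 highest nuclei 0.87 (0.35 to 1.40). Cluster 11, led by Pax3 and Cyp26b1, held most of these UMIs, 72 and 171, and its share of the class differed, at 232 of 751 and 316 of 653 nuclei. Within it the ratio was 0.64 (0.23 to 1.06), and in cluster 4, the other radial glia cluster, 12 against 11 UMIs gave 0.39 (-0.93 to 1.70). Tafa2 had 43 and 81 UMIs in radial glia (0.95, 0.40 to 1.52), which fell to 35 and 41 UMIs (0.27, -0.42 to 0.96) without the 3 highest nuclei.

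Small clusters gave large ratios from few nuclei. Cluster 16, a neuron-like cluster led by Rarb and marked by Isl1, had 86 against 13 Tafa1 UMIs (-2.19, -3.16 to -1.34), of which 2 wildtype-labelled nuclei held 48 and 22. The nucleus with 48 had 18432 UMIs in all, a high doublet score and 72 UMIs of cortical excitatory markers. Thinning brought the Tafa1 ratio to -0.45, and leaving out the top doublet scores to -1.11. Tafa2 in the same cluster had 172 against 55 UMIs (-1.11), where 0.615% of 1625 genes were 2-fold or more down and 0.246% up, and thinning brought the ratio to -0.50. Endothelial-like nuclei had 40 against 127 Tafa1 UMIs (1.18), with 42, 35 and 25 in 3 knockout-labelled nuclei, and there 1.43% of 1333 genes were 2-fold or more up and 0.600% down. Those 3 nuclei also had 25, 192 and 39 UMIs of general neuron markers. In the wildtype-labelled library 3 nuclei held 26, 6 and 6 of the 40 UMIs and had 94, 42 and 33 neuron marker UMIs. Without these nuclei 2 against 25 UMIs were left (3.10, 1.09 to 6.22). Fibroblast-like nuclei had 75 against 28 Tafa1 UMIs (-1.59), where 0.565% of 1593 genes were 2-fold or more down and 0.691% up, and without the 3 highest nuclei 14 against 14 UMIs. The part of mixed nuclei in these ratios was not tested.

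**Figure D4:**
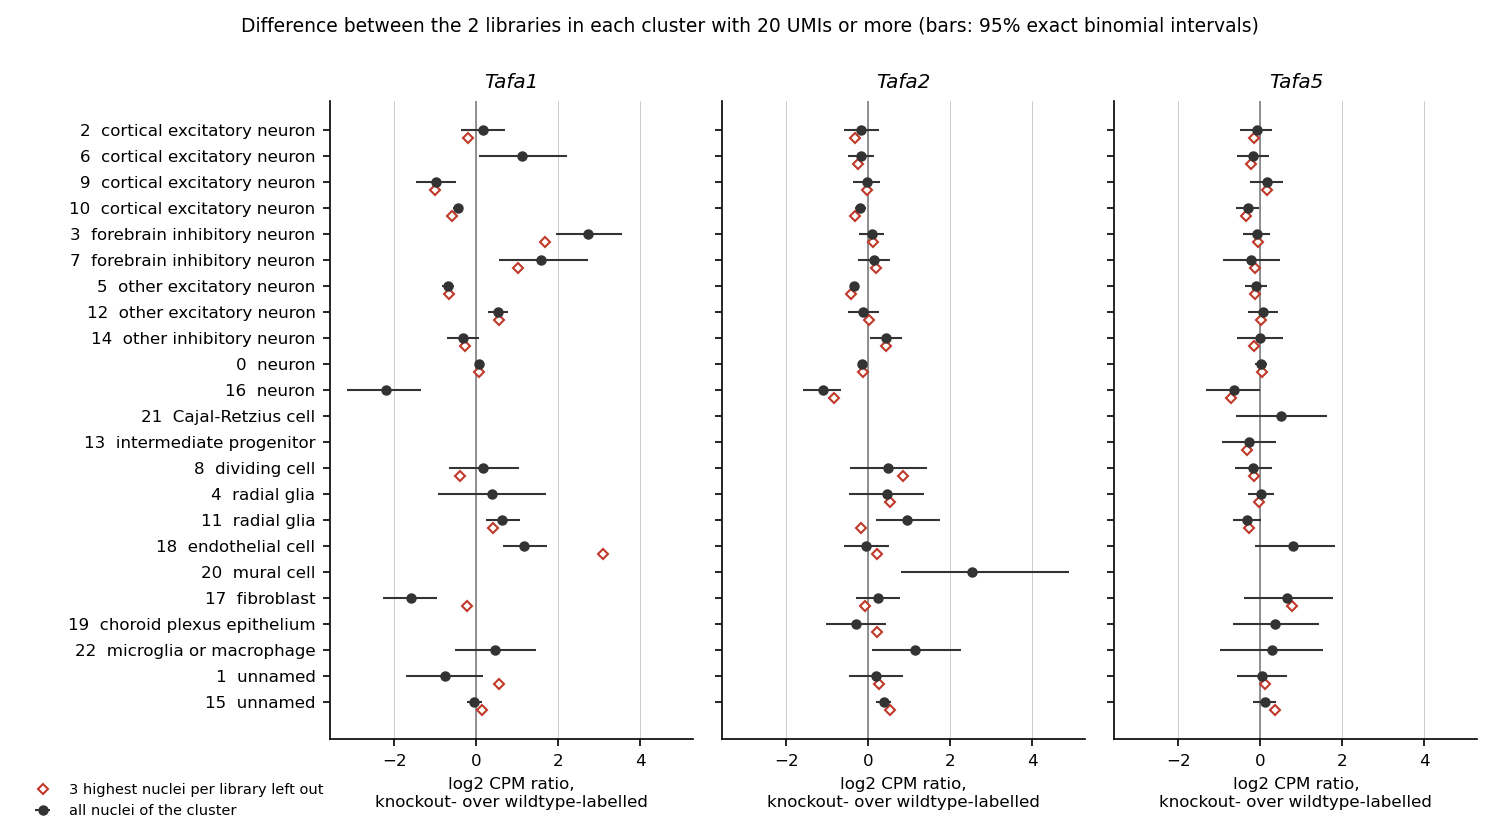
Log2 ratio of CPM, knockout-labelled over wildtype-labelled, for Tafa1, Tafa2 and Tafa5 in each cluster with at least 20 UMIs of the gene. Black points with lines are all nuclei with exact binomial 95% intervals. Open red diamonds leave out the 3 nuclei richest in the gene from each library. They are drawn only where at least 20 UMIs of the gene remain in both libraries together and both sums stay above 0. Tafa1 in cluster 3 moves from 2.72 to 1.68, and Tafa5 stays within -0.65 and 0.79 with all nuclei.

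Among 10007 genes with at least 500 UMIs, those whose level over the 18 clusters was most like that of Tafa1 were Unc13c (r = 0.94), which encodes a synaptic vesicle priming protein, the uncharacterised gene Gm32647 (0.91), the ephrin receptor gene Epha6 (0.87), Faah (0.87), an enzyme that breaks down endocannabinoids, and the latrophilin gene Adgrl3 (0.87). For Tafa2 they were the endophilin gene Sh3gl3, Il1rapl2 and Dagla, an enzyme that makes an endocannabinoid (0.90 each), then Bicdl1 and 4933413L06Rik (0.88 each). For Tafa5 the likeness was weaker, with Dtna at 0.78, Taf4 at 0.77, Gm16054 at 0.75 and Gm16178 and Tm7sf2 at 0.72. The Tafa1 and Tafa2 profiles had an r of 0.80, and 52 genes were closer to Tafa1 than Tafa2 was. Tafa5 had an r of 0.53 with Tafa1 and 0.37 with Tafa2 over all 18 clusters. Over the 11 neuron clusters alone the 3 values lay close together, at 0.76 for Tafa1 with Tafa2, 0.75 for Tafa1 with Tafa5 and 0.69 for Tafa2 with Tafa5. In each library alone, 1 and 4 of the 5 genes stayed among the 5 most like Tafa1, 1 and 1 for Tafa2, and 2 and 1 for Tafa5. These r values describe clusters from shared libraries and carry no p.

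The reported partners of the family were measured in the same nuclei. The neurexin genes Nrxn2 and Nrxn3 were abundant, Nrxn2 at 222 and 259 CPM and Nrxn3 at 3240.1 and 3341, with log2 ratios of 0.22 and 0.04. Of the reported receptors or partners of single members, Lrp1 (a partner of Tafa4) had 125 and 140.1 CPM and Lrrc4b (a partner of Tafa5) 112 and 121. Gpr1, also named Cmklr2 and a receptor for Tafa1, gave 26 and 25 UMIs, S1pr2 gave 46 and 79, Fpr1 gave 4 and 5, and Fpr2 gave 0 and 0. The receptors with the fewest UMIs were therefore barely measured at this depth, while Nrxn2 gave 3822 and 5142 UMIs.

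The family shares neurexins with other secreted ligands. Of the 12 genes, neurexophilins, cerebellins and C1q-like proteins, 9 had at least 100 UMIs, and 1, the neurexophilin Nxph4, passed 2-fold, with 116 and 287 UMIs (1.10, 0.78 to 1.42), against 0.367% of all 15528 genes up and 0.116% down by as much. Nxph1, the most abundant, was even at 520.3 and 535 CPM (0.04), and Nxph2 was lower in the knockout-labelled library at 9.07 and 5.58 CPM (-0.70, -1.06 to -0.34). Cbln1 (0.79) and C1ql3 (0.64) had ratios above 0 at low counts. The median log2 ratio of the 9 was 0.34, against -0.01 over all 15528 genes.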

How the data were processed

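Nuclei from 1 wildtype and 1 Cav1 knockout fetal mouse brain sample were profiled on the 10x Genomics 3′ platform, per the labels' protocols. The deposited values are UMI counts, not normalized, for every gene in every barcode. Per the file headers, Cell Ranger 6.1.1 made the counts, whereas the submitters' processing notes name Cell Ranger 3.0.1, STAR and GRCm39. Whether intronic reads were counted and whether strand was used are not given in the sources used here. No barcode had under 500 UMIs, and 0 other columns of sample values were left unused.

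Barcodes with at least 500 genes and at most 5% mitochondrial UMIs were kept (2969 and 3904 had too few genes, 108 and 227 too many mitochondrial UMIs). Counts were scaled to 10000 per nucleus, and 3048 variable genes, the Tafa genes excluded, gave 30 principal components, 15 neighbours and Leiden clusters at resolution 1 (scanpy 1.11.5, leidenalg 0.10.2, Python 3.11.15). A cluster was named from at least 3 markers of a fixed list. Cluster 1, of low depth, and cluster 15, of high depth with 57.9% of its nuclei among the top doublet scores, stayed unnamed. Scrublet's automatic threshold marked 0 nuclei in each library and so did not work. No doublets were removed, and leaving out the top 8% of scores (535 and 534 nuclei) was an alternative.

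UMIs were summed per gene, cluster and library. CPM has exact Poisson intervals, ratios exact conditional binomial intervals and shares exact Clopper-Pearson intervals, all at 95%, and the limit for a count of 0 is 3 counts. A gene with at least 100 UMIs in both libraries together was compared with a 2-fold bound. Likeness used log2(CPM + 10). Positions and exons are from GRCm39 (GENCODE), to which 54749 of 55416 features (98.8%) matched. The ratio and interval calculations were tested on simulated data.

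The members, marker lists and partner lists were chosen with earlier results of these data known. Named genes are the family, the partner lists (some items are not reported here), Cav1, the 5 genes most like each abundant member, and, where needed to identify a cluster, its markers and leading genes. Alternatives were other gene minimums, scalings, thinning, resolutions, cluster weighting and pseudocounts.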

Additional observations from a re-analysis of the deposited data

Results flagged for a closer look

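For Tafa1 and Tafa2, clusters with at least 20 UMIs of the gene differed past 2-fold in opposite directions, each with an interval that leaves out 0, and the difference between clusters was not tested. For Tafa1 the log2 ratios were 2.72 in cluster 3, 1.12 in cluster 6 (14 against 21 UMIs, all 21 in 2 nuclei), 1.59 in cluster 7 and 1.18 in cluster 18, the endothelial-like cluster. They were -2.19 in cluster 16 and -1.59 in cluster 17, the fibroblast-like cluster. For Tafa2 they were 2.52 in cluster 20, the mural-like cluster (3 against 26 UMIs), 1.15 in cluster 22, the microglia or macrophage-like cluster (13 against 22 UMIs), and -1.11 in cluster 16. Tafa2 in clusters 20 and 22 and Tafa1 in clusters 6, 7 and 16 had too few UMIs for the 2-fold comparison. Among genes with enough, 6.98% of 215 were 2-fold or more up in cluster 20 and 2.33% down. In cluster 22 these shares were 6.67% and 8.33% of 120 genes. They were 0.0290% and 0.116% of 3444 genes in cluster 6 and 0.0758% and 0.114% of 2638 in cluster 7. Without the 3 nuclei richest in Tafa2 in each library, cluster 20 had 0 against 2 UMIs and cluster 22 had 4 against 0, so in cluster 22 the direction turned. Without the 3 nuclei richest in Tafa1, cluster 6 had 8 against 0 UMIs, and the direction turned there too.

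Barcodes left out for having under 500 genes also carried UMIs of the family. In the wildtype-labelled library they gave 24.1 CPM of Tafa1, 45.7 of Tafa2, 3.01 of Tafa4 and 56.0 of Tafa5, where a count of 0 would allow 1.81 CPM. In the knockout-labelled library they gave 19.4 CPM of Tafa1, 61.2 of Tafa2 and 56.4 of Tafa5, against a limit of 1.32.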

How the results depend on the processing

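No paired analysis was possible because each genotype had 1 library. Of the values recomputed under an alternative for the totals, classes, background and likeness, 146 moved by less than their own interval or count limit and 26 by more. The classes recomputed, for Tafa1, Tafa2 and Tafa5, were radial glia and the neuron classes except Cajal-Retzius cells. Among these only Tafa1 in forebrain inhibitory neurons and in radial glia was past 2-fold, and neither value changed sign. Ratios of the remaining classes, the non-neural ones among them, were not part of these counts. Thinning to 1000 UMIs gave log2 ratios for Tafa1 of -0.48 in cortical excitatory neurons and 0.59 in radial glia, and for Tafa5 of -0.34 in cortical excitatory neurons, 0.86 in other inhibitory neurons and 0.14 in radial glia. Resolution 0.5 gave Tafa1 -0.53 in cortical excitatory, 0.92 in forebrain inhibitory and -0.12 in neuron-like nuclei, and Tafa2 -0.19 in forebrain inhibitory neurons. Radial glia had no value at that resolution. Resolution 2 gave Tafa1 0.69 in cortical excitatory and -0.01 in other excitatory neurons, Tafa2 -0.36 in cortical excitatory and 0.18 in neuron-like nuclei, and Tafa5 0.19 in neuron-like nuclei. Clusters weighted equally gave Tafa1 -0.29 in neuron-like nuclei and 0.62 in radial glia, Tafa2 -0.32 in other excitatory neurons and -0.45 in neuron-like nuclei, and Tafa5 -0.22 in neuron-like nuclei. Leaving out the top doublet scores gave Tafa1 0.31 in neuron-like nuclei. Leaving out the 3 nuclei with the most UMIs, added after seeing the data, gave Tafa1 -0.47 in cortical excitatory neurons and Tafa2 0.27 in radial glia. With at least 20 UMIs, 2.84% of 21131 genes passed 2-fold, against 0.483% of 15528 with at least 100, the lower limit itself admitting noisier ratios. In neuron clusters alone 3, 1 and 1 of the 5 most alike genes of Tafa1, Tafa2 and Tafa5 were kept, and 4 of each with a pseudocount of 50. Beyond these constructions, the cause was not tested. Depth limits Tafa3, Tafa4 and the receptor genes.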
